A study of Mus musculus with 2 samples.

Results

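The genes described here are 10 mouse genes of the sarcomere's Z-disc, 4 of which encode LIM domain proteins: Actn2, Ldb3, Myoz2, Tcap, Csrp3, Mypn, Myot, Fhl2, Fhl1 and Des. They were taken by name, and all 10 were found among the 21883 protein-coding genes of the RefSeq gene table (GRCm38.p6, whose primary chromosomes carry the mm10 coordinates). For each gene, peaks of the histone mark H3R17me2a were collected over the gene span and 5000 bp on either side. The series concerns Carm1, the arginine methyltransferase that places this mark, in cardiac maturation. It measured the mark by ChIP-seq, in which an antibody pulls down DNA fragments and a peak is a stretch where they pile up above background.

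Both samples carry the same labels: wild type genotype, heart tissue and age P21, 21 days after birth, so they form 1 group, and no other genotype, treatment or input was analysed here. The titles carry the name carm1 although the genotype is wild type, and the source label names primary cardiac fibroblasts although the tissue label and the protocol describe homogenized frozen heart. The design text calls the hearts neonatal, and the protocol writes the antibody's target as H3R17me2. Each sample has 1 peak list, called list 1 and list 2. Whether they represent separate animals is not stated.

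The Z-disc is the boundary of the sarcomere, where actin filaments of neighbouring sarcomeres overlap and are crosslinked by alpha-actinin, and where titin is anchored. Around that lattice sit adaptor proteins, many with LIM domains (zinc-binding folds that mediate contacts between proteins), which link the contractile apparatus to signalling and to desmin filaments. Asymmetric dimethylation of arginine 17 of histone H3 is known as a mark that accompanies transcriptional coactivation.

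The main chromosomes had 21496 peaks in list 1 and 38012 in list 2, whose lowest −log10 p were 5 and 2.01. Total depth is unknown, but the ChIP reads at each summit were recovered from the authors' fold and p, with medians of 26 and 14 reads. Summits fell on the same base in 42.1% of 20978 overlapping pairs, and there the recovered reads differed by a median of 1 read. Over the 10 genes this share was 30.5% of 141 pairs, also with a median difference of 1 read. The lists were therefore counted as 1 sample and are given side by side as 2 calls, without an SD or a test. Of the 8 cardiomyocyte marker genes listed, 8 had a peak shared by the lists over the span or flanks, against 48.7% of all protein-coding genes. The median share of their span covered in both lists was 60.4%, and Myh6, the adult myosin heavy chain, stood at 89.7%. Of 10 fibroblast markers only Ddr2 had a shared peak (10%), in its flank, and none had a base covered in both lists. Of 8 endothelial, 8 immune and 8 mural markers 1, 1 and 4 had a shared peak (12.5%, 12.5% and 50%). The mural share was thus near that of all genes. List 2 alone had peaks over Col1a1, Col1a2 and Pdgfra, covering 4.54%, 0.579% and 1.25% of the spans. Whether cells carry this mark on their defining genes was not tested, and neither was which cells gave the peaks. In homogenized tissue, the share of cells that carry the mark and its amount per cell cannot be told apart.

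H3R17me2a peaks of both lists lay over 9 of the 10 Z-disc genes, and over Tcap, Fhl2, Ldb3, Csrp3 and Actn2 they covered between 43.8% and 100% of the gene in both lists. A peak of list 1 that overlaps a peak of list 2 by at least 1 bp is called shared. A shared peak was found over the span or flanks of 9 of 10 Z-disc genes, against 48.7% of all protein-coding genes, and the exception was Myot. By length, both genes under 10000 bp (Tcap and Des) had one, against 33.5% of all genes of that length. So did 2 of the 3 genes of 10000 to 50000 bp (55%) and 5 of the 5 over 50000 bp (61.6%).

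The 10 genes held 141 list 1 peaks and 151 list 2 peaks, of which 137 (97.2%) and 117 (77.5%) overlapped a peak of the other list, against 97.1% and 52.2% of all peaks. The median was 7 shared peaks a gene, against 0 over all protein-coding genes. Actn2 had 38, Fhl2 35, Ldb3 29 and Csrp3 10, so these 4 genes held 81.8% of the shared peaks. Of the 151 list 2 peaks, 71 (47%) had a −log10 p below 5, the lowest value of list 1, against 51.3% of all list 2 peaks. At least 10 shared peaks were found at 4 of the 10 genes, against 0.887% of all protein-coding genes, and at 3 of the 5 over 50000 bp, against 3.07% of genes of that length. Csrp3 lay exactly at this limit. It had 7 without the flanks, 9 at a common −log10 p of 5 and 12 with flanks of 10000 bp.

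The share of the gene under peaks showed the same contrast. In both lists, the median Z-disc gene had 33.6% of its span under a peak, against 0% for the median protein-coding gene and 1.87% for the median gene with a shared peak in its span. At least 10% of the span was covered in 7 of the 10 genes, against 5.05% of all genes. That held for 3 of the 5 genes over 50000 bp, against 0.607% of that length class, and for 2 of the 3 of middle length, against 2.73%. Among the 4944 protein-coding genes over 50000 bp, Fhl2, Ldb3 and Actn2 ranked 1, 2 and 3 by the share covered in both lists. In list 1 alone the order was the same, and in list 2 alone Ldb3 came first and Fhl2 second. The 10 genes were chosen with earlier results of these data known, so the ranks describe them and are no test.

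**Figure D1:**
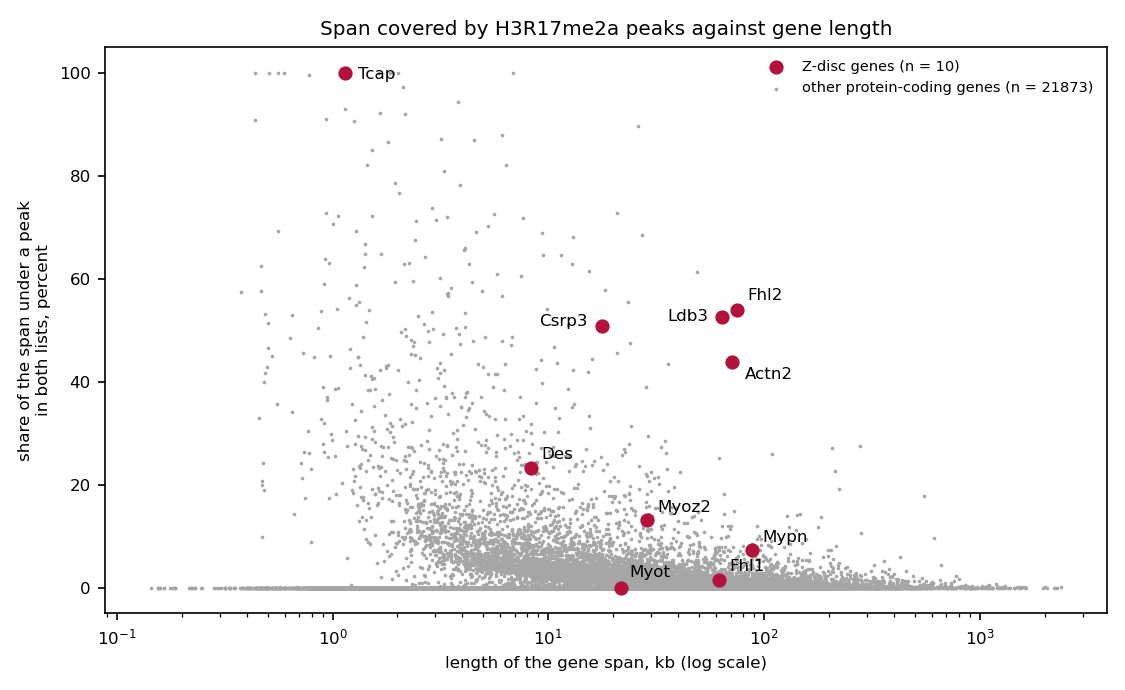
Length of the gene span (x, kb, log scale) against the share of the span under a peak in both lists (y, percent); red points are the 10 Z-disc genes and grey points the other protein-coding genes. Tcap lies at 100%, Fhl2, Ldb3, Csrp3 and Actn2 between 43.8% and 53.9%, and Myot and Fhl1 at 0% and 1.53%.

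The peaks over these genes were wider than the lists' peaks at large, with nearly the same median fold. Their median width was 685 bp in list 1 and 767 bp in list 2, against 460 and 459 bp over all peaks. Peaks of at least 1000 bp made up 31.2% and 38.4% of them, against 12.9% and 14.4% of the lists. The median fold enrichment, the authors' value for how far the summit exceeds its background, was 5 in list 1 and 3.64 in list 2, against 4.98 and 3.53. Most shared peaks lay inside the genes: 89 of 137 (65%) had their summit more than 5000 bp from both ends of the span. Most of these belonged to 3 genes over 50000 bp: Actn2 had 30, Fhl2 28 and Ldb3 22. Fhl1 and Myot had 0, and Tcap and Des are too short to hold such a summit. The same share over all genes was not computed.

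**Figure D2:**
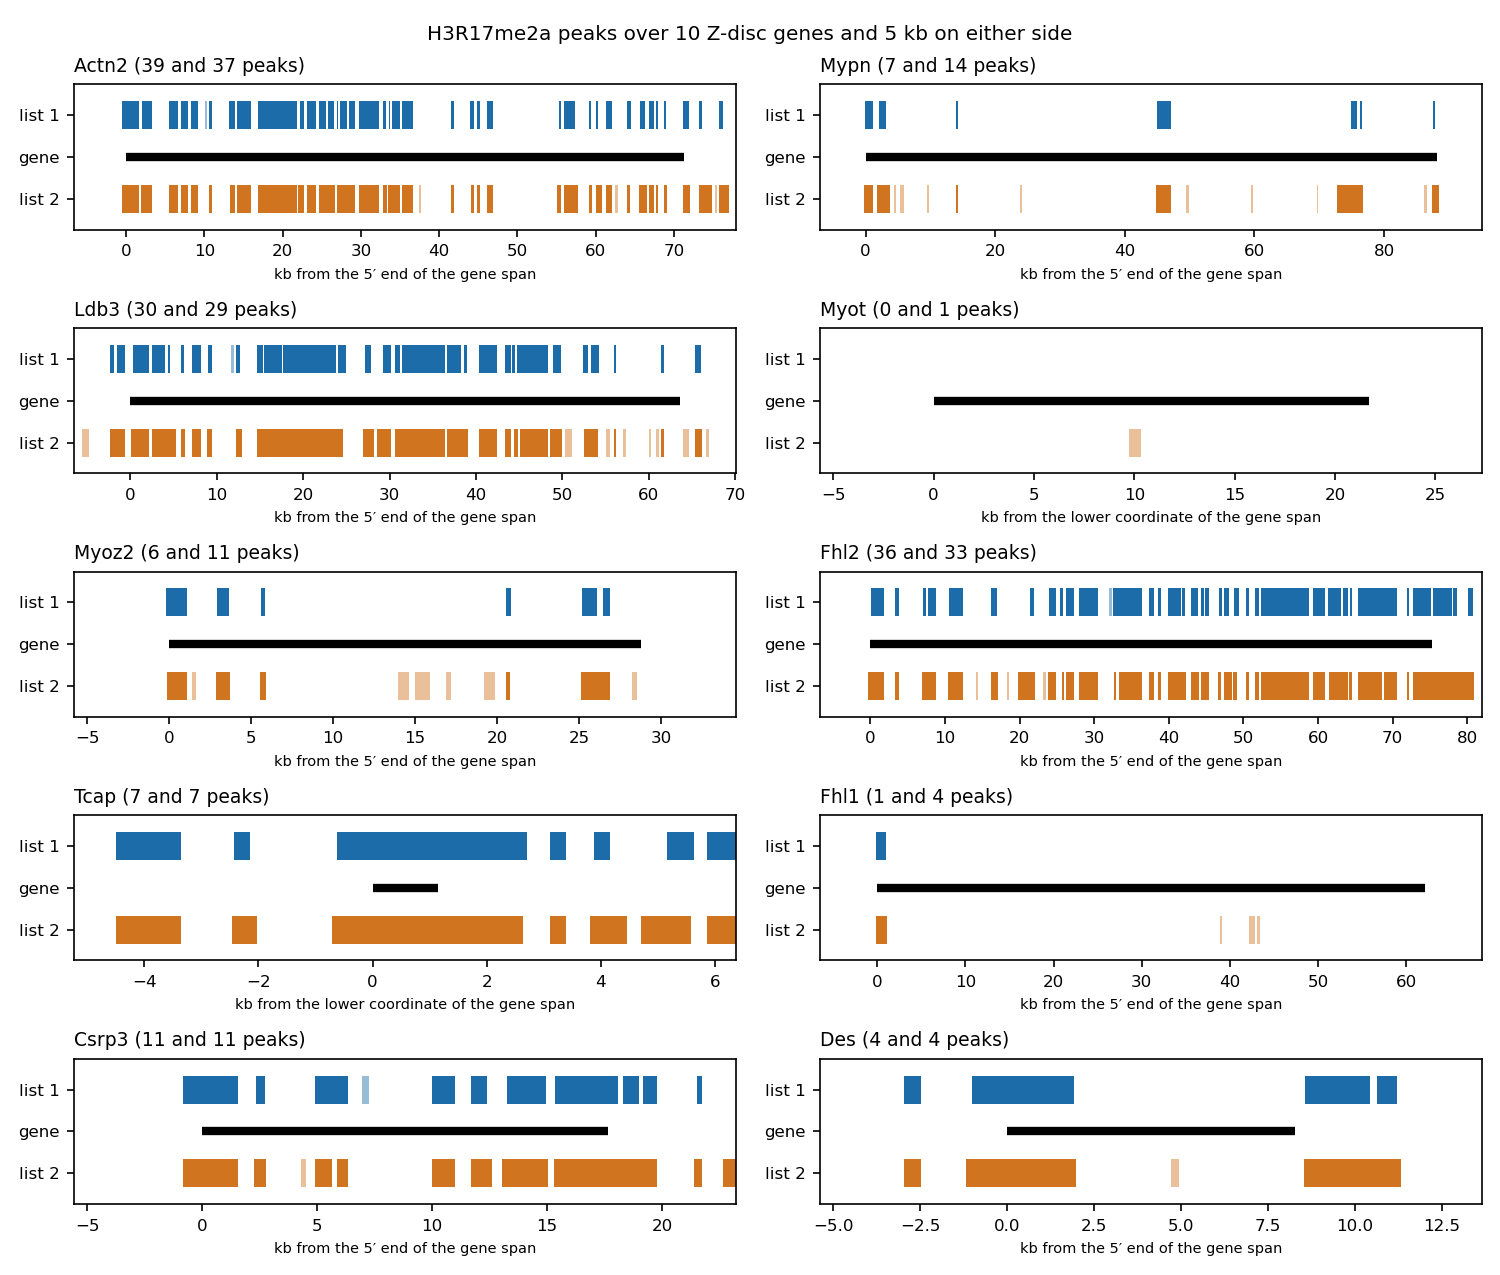
Peaks over each gene (black bar) and 5 kb on either side, with list 1 above and list 2 below; x is the distance in kb from the 5′ end of the span, or from its lower coordinate for Tcap and Myot. Full colour marks peaks that overlap a peak of the other list and pale colour those that do not. Actn2, Ldb3, Csrp3 and Fhl2 carry peaks along most of the span, Des mainly at the start, Myoz2 and Mypn at the start and again farther in with gaps between, and Fhl1 and Myot almost none.

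Actn2 encodes sarcomeric alpha-actinin, which crosslinks actin in the Z-disc (chr13:12269426-12340732, minus strand). It had 39 peaks in list 1 and 37 in list 2, and these covered 44.7% and 50.1% of the 71307 bp span. The mark was denser toward the 5′ side. Cut into 10 equal bins from the 5′ end, the span was covered in both lists at 57%, 37.8%, 88.3%, 69.1% and 74.1% in the bins 1 to 5, and at 18.1% to 27.9% in the bins 6 to 10. The widest peak, 4988 bp in list 1 and 4982 bp in list 2, began at the same base in both (12318950). The lncRNA gene Gm40667 (12309705 to 12323488) lies inside the span, across bin 4 and parts of bins 3 and 5, and most of the widest peak lies on it. In list 1, 9 peaks fell on it or within 1000 bp of it, and in list 2, 6 did. These peaks cannot be assigned to Actn2 alone. The longest stretch without a peak of either list was 8136 bp.

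Ldb3 encodes a PDZ and LIM domain protein (also called Cypher or ZASP) that binds alpha-actinin (chr14:34526699-34590314, minus strand). Its 30 list 1 and 29 list 2 peaks covered 54.4% and 64.9% of 63616 bp. The longest uncovered stretch was 2622 bp, or 4.12% of the span. The most covered bin was the sixth from the 5′ end (95.3% in both lists), and the last bin held 4.62%. List 2 drew 1 peak of 9962 bp (34565670 to 34575631), the widest of all 10 genes, where list 1 drew 4 peaks, the widest of 6110 bp. The summits of these widest peaks had 85 recovered reads in both lists. The strongest Ldb3 peak by fold (10.8 and 7.98) began at 34553945 in both lists. Peaks on the neighbouring gene Opn4 or within 1000 bp of it numbered 3 in each list. They include the peak over the Ldb3 transcription start, and the others lie in the Opn4 span, so these peaks cannot be assigned to Ldb3 alone. At the other end, 1 list 2 peak fell within 1000 bp of the gene 9230112D13Rik.

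Tcap encodes telethonin, the cap that ties the ends of titin molecules together at the Z-disc, and is the shortest of the genes (chr11:98383811-98384953, 1143 bp). A single peak in each list, of 3325 bp (98383194 to 98386518) and 3348 bp (98383106 to 98386453), covered the whole gene, and both summits lay at 98383789, 22 bp below its lower end. Of the 7924 protein-coding genes under 10000 bp, 0.126% had as large a share covered. The folds were low, at 3.39 and 2.36, and the reads high, at 87 and 90. The other 6 peaks of each list within 5000 bp lay outside the gene, at or near Stard3, Pnmt and Pgap3, and without the flanks the count at Tcap was 1. The peak that covers Tcap also ends within 1000 bp of Pnmt in both lists, so it cannot be assigned to Tcap alone.

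Csrp3 encodes muscle LIM protein, a LIM-only adaptor of the Z-disc (chr7:48830398-48848051, minus strand). It had 11 peaks in each list, covering 53.5% and 55.9% of 17654 bp. Both ends were marked most: the first bin from the 5′ end was covered at 89.3% in both lists and the last at 100%, while the fifth was at 0%. The peak over the 5′ end (48846475 to 48848896 in list 1, 48846471 to 48848897 in list 2) had the same summit in both, 48848069. At the 3′ end, list 2 drew a single peak of 4501 bp with a fold of 9.37, over a stretch where list 1 drew 3, with folds of 9.12, 4.22 and 9.05. On the 3′ side, 2 list 1 peaks and 3 list 2 peaks fell on the neighbouring gene Zdhhc13 or within 1000 bp of it. The list 2 peak of 4501 bp is among them, so it cannot be assigned to Csrp3 alone.

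The FHL genes encode proteins made of LIM domains in series, and the pair differed widely. Fhl2, the form abundant in heart (chr1:43123071-43198343, minus strand), had 36 peaks in list 1 and 33 in list 2, covering 56.3% and 60.7% of 75273 bp. Its 3′ side was covered more, at 91.6%, 77.1% and 69.3% of the last 3 bins in both lists against 36.3%, 36.7% and 18.9% of the first 3. The widest list 1 peak, of 6434 bp, had a list 2 counterpart of 6444 bp. At the 3′ end list 2 drew a peak of 8140 bp that runs out of the gene. The pseudogene Gm8210 lies inside the span, and 1 peak of each list fell on it, so that peak cannot be assigned to Fhl2 alone.

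Fhl1, known from skeletal muscle and heart, had almost none (chrX:56731209-56793346, plus strand). Of its 62138 bp, 1.53% lay under a list 1 peak and 3.79% under list 2 peaks. The only shared peak crossed the 5′ end of the span (56731099 to 56732161 and 56731079 to 56732296), with folds of 4 and 2.53 and 51 and 68 reads. List 2 alone added 3 peaks of 11 reads or fewer, at 62.6% to 69.6% of the span. Of all genes, 48.7% had at least as many shared peaks.

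Myoz2 encodes a calsarcin, which binds alpha-actinin and the phosphatase calcineurin (chr3:123006206-123035003, minus strand). It had 6 peaks in list 1 and 11 in list 2, covering 13.1% and 25.7% of 28798 bp. The shared peaks fell into 2 groups. In bins 1 and 2 from the 5′ end 36.9% and 32.5% were covered in both lists, the fourth to the seventh bin had none, and 8.85% to 25.2% were covered in the last 3. The 6 list 2 peaks without a list 1 counterpart had 8 to 12 reads.

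Mypn encodes myopalladin, an immunoglobulin-domain protein that tethers nebulin-family proteins to alpha-actinin (chr10:63115795-63203952, minus strand). Its highest peak by fold was the strongest of the 10 genes in each list (13.3 in list 1 and 22.9 in list 2). Its 7 list 1 peaks covered 7.29% of 88158 bp, and its 14 list 2 peaks 15.3%. The peak over the 5′ end had folds of 13.3 and 14.3, rank 397 in list 1 and rank 304 in list 2, with 39 and 38 reads at the same summit (63204004). Its recovered background was 2 in list 1 and 0.718 in list 2, where the lowest over the 10 genes was 0.685.

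Another Mypn peak, at 85.6% of the span, had like reads but unlike folds in the lists. Its fold was 6.78 in list 1 and 22.9 in list 2, rank 4803 and rank 47. The summit lay at the same base, 63128487, with 60 and 62 reads. The recovered background was 8 reads in list 1 and 0.718 in list 2 (list 2 backgrounds throughout are those of reads scaled by 0.6183). Another peak, near the middle of the gene and with different summits in the lists, had 46 reads in each, backgrounds of 10 and 1.07 and folds of 4.27 and 14.2. What set the background of each list was not tested.

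Myot encodes myotilin, a relative of myopalladin that binds alpha-actinin and filamin and is known mainly from skeletal muscle (chr18:44334053-44355740). List 1 had no peak within 5000 bp of it. List 2 had 1, of 600 bp near the middle of the span (44343799 to 44344398), with a fold of 4.26 and 10 reads. That is a result of peak calls, and a mark below the callers' thresholds was not detectable here.

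Des encodes desmin, the intermediate filament protein that encircles the Z-disc and ties myofibrils together (chr1:75360292-75368579, plus strand). It had 4 peaks in each list over the span and flanks, of which 1 in list 1 and 2 in list 2 touched the gene. These covered 23.3% and 26.7% of 8288 bp. Without the flanks the count of shared peaks at Des was 1. The first and the second bin were covered at 100% in both lists, the third at 32.9%, and the other 7 had no base covered in both. The 5′ peak measured 2924 bp and 3160 bp, with 71 reads in each list. A further block began just past the 3′ end, at the lncRNA gene Gm15179. List 1 drew it as peaks of 1862 and 575 bp and list 2 as 1 of 2772 bp, with a fold of 7.74, the highest of Des in list 2.

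Peaks at the transcription starts had more reads and more background than the other peaks of the 10 genes, and folds from low to high. The promoter table of RefSeq (GRCm38.p6, 250 bases before to 50 after each start) held 12 windows of 8 of the genes, and lacked entries for Tcap and Myot. Bases of 9 of the 12 windows lay under a peak in both lists, against 35.3% of 21262 windows of protein-coding genes, and 7 of the 8 genes had such a window. The 2 Fhl1 windows had no peak, and both (from 56779433 and from 56786277) lie far inside the span, away from its peak at the 5′ end. The inner window of Csrp3 had a list 2 peak alone.

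Peaks over these windows had a median of 67 recovered reads in list 1 (8 peaks, 39 to 185) and 64 in list 2 (9 peaks, 15 to 183). The other peaks of the 10 genes had medians of 24 and 21. The recovered background was higher there too, at medians of 13.1 and 8 against 4 and 3. The median fold was 5.86 in list 1 and 4.41 in list 2, against 5 and 3.62 at the other peaks. Mypn (13.3 and 14.3) had the highest folds of these start-site peaks, and Myoz2 had 8.5 and 4.82. The outer Fhl2 start had 8.32 and 2.58. Actn2 was the extreme by reads. Its start-site peak (12339150 to 12341296 in list 1, 12339105 to 12341296 in list 2) had the most reads of all peaks over the 10 genes, 185 and 183. Backgrounds of 49 and 43 left folds of 3.72 and 2.59, rank 15934 and rank 33279 by fold, against rank 735 and rank 217 by reads. The inner Fhl2 start had 103 reads in both lists with folds of 4.73 and 3.81, and the Csrp3 start 93 and 91 reads with folds of 3.36 and 4.41. The sources used here do not give whether the authors took the background from the ChIP library or an input.

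**Figure D3:**
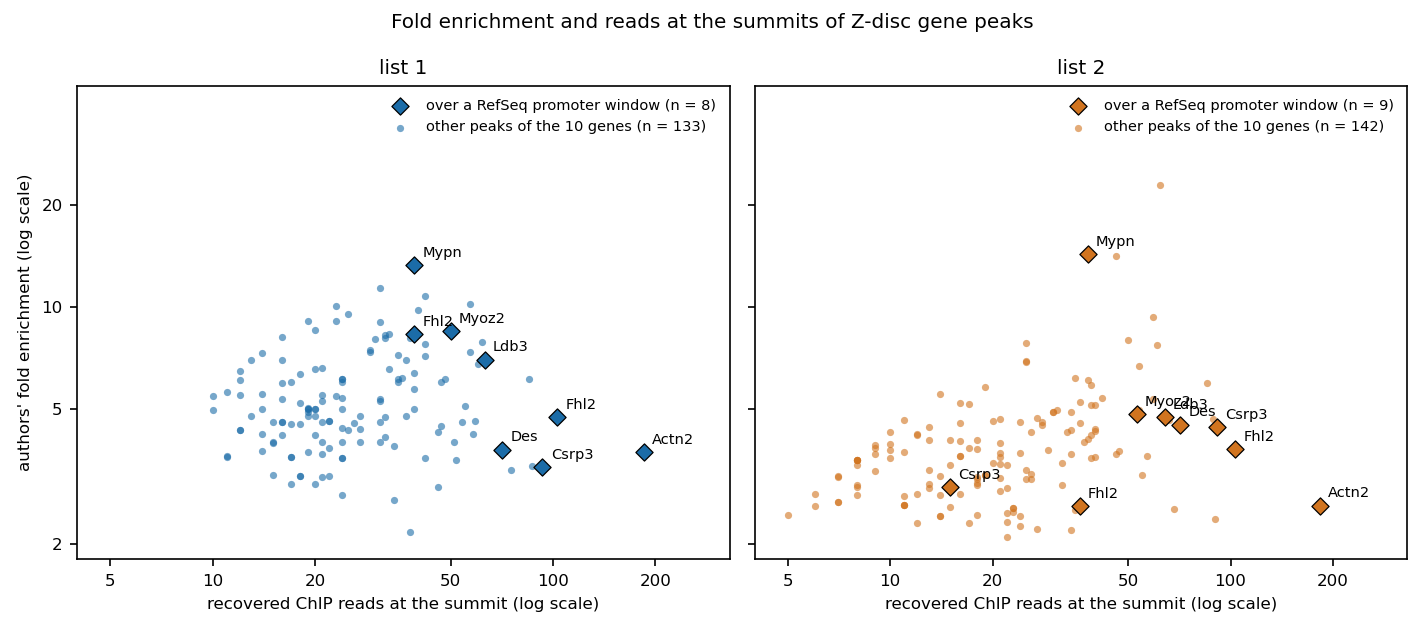
Recovered ChIP reads at the summit (x, log scale) against the authors' fold enrichment (y, log scale) for every peak of the 10 genes, with list 1 on the left and list 2 on the right. Diamonds are peaks over a RefSeq promoter window, labelled by gene, and points are the other peaks. Actn2 lies farthest right in both panels, at 185 and 183 reads, with folds of 3.72 and 2.59, and Mypn has the highest fold among the diamonds, 13.3 and 14.3.

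Promoter windows with bases under a peak in both lists are shown for the 5 genes with the lowest summed rank by fold, 1 window a gene. The Ldb3, Des and Fhl2 windows shown lay under such peaks with all 300 bases. The Mypn window did so with 183 bases and the Myoz2 window with 206, so part of each lies outside. They are RefSeq sequences of GRCm38.p6, 5′ to 3′ on the strand of the gene, with 250 bases before the start of transcription and 50 from it. Capitals mark matches on either strand to the MEF2 site and the CArG box (binding motifs of the muscle factors MEF2 and SRF, searched by their consensus), to M-CAT (CATTCC), the TATA box (TATAAA), the GC box (GGGCGG), the GATA site (AGATAA) and the ERR site (AAGGTCA).
Mypn (chr10:63203903-63204202, minus): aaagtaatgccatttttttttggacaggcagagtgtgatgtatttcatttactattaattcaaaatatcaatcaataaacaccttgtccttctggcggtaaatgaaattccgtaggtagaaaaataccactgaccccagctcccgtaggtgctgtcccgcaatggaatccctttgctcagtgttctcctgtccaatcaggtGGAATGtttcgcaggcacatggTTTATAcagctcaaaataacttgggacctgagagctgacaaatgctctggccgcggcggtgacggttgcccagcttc
Myoz2 (chr3:123034938-123035237, minus): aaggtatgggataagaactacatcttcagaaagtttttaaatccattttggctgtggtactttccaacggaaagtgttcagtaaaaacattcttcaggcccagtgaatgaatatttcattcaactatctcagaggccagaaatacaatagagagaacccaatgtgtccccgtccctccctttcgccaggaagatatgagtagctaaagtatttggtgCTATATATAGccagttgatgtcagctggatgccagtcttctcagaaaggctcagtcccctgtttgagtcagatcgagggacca
Ldb3 (chr14:34588632-34588931, minus): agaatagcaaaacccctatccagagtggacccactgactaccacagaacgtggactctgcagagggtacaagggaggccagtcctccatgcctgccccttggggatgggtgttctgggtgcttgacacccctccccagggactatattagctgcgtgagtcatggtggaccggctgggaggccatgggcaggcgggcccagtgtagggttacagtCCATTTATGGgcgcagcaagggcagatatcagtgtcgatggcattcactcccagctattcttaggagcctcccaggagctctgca
Des (chr1:75360042-75360341, plus): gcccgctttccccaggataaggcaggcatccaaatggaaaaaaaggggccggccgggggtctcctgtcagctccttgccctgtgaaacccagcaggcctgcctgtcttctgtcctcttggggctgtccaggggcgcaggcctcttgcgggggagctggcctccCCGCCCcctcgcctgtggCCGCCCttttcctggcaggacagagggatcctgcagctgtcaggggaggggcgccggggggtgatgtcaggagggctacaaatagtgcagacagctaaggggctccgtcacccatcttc
Fhl2 (chr1:43163912-43164211, minus): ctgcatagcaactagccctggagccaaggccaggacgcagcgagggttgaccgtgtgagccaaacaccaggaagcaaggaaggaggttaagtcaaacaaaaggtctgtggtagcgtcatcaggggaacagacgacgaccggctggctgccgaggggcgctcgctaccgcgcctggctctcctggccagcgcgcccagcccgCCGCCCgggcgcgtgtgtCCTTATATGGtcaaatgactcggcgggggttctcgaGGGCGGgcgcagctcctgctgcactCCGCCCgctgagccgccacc

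In the Mypn window the capitals are an M-CAT and a TATA box, in Myoz2 a MEF2 site, in Ldb3 a CArG box, in Des 2 GC boxes, and in Fhl2 a CArG box and 3 GC boxes. No marked motif overlaps another in these windows. Across the 12 windows, a CArG box was found in 5, from Ldb3, Fhl2 and Fhl1, against 1.52% of all protein-coding promoter windows. The Ldb3 windows overlap each other and share the site, and the Fhl1 window that holds one had no peak. A MEF2 site was found in 2 windows, of Myoz2 and the outer Fhl2 start, against 2.74%. M-CAT was found in 1 against 13.6%, the TATA box in 3 against 12.6%, the GC box in 3 against 46.2%, the GATA site in 1 against 9.65% and the ERR site in 0 against 4.08%. E-boxes (CANNTG), left in lower case, were in 10 of the 12 windows and in 69% of all. A match is a stretch of letters and no evidence of binding.

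Shared peaks were also found over most other Z-disc genes, with less of the span covered at the median. Of 34 further Z-disc genes, 31 had a shared peak over the span or flanks (91.2%, against 48.7%), with a median of 3.5 peaks and 4.29% of the span covered in both lists. At least 10% of the span was covered in 11 of the 34. The most covered were Ankrd23, a titin-associated ankyrin repeat gene (82%), Synpo2l, which encodes an actin-associated Z-disc protein (64.7%), and Bag3, a chaperone partner that maintains the Z-disc (55.5%). Without a shared peak were Actn3, the alpha-actinin of fast skeletal fibres, Ankrd2, and Neb, which encodes the thin-filament ruler nebulin.

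Those 3 are also on the list of skeletal muscle paralogs. Of 6 such genes 3 had a shared peak, near the background share, and the median covered share was 0%. Fhl3 had the highest, at 8.51%. At Myoz1 the 3 shared peaks lay in the flanks, with no base of the gene covered in either list. A flank of Myoz1 reaches into Synpo2l, and whether these peaks belong to Synpo2l was not examined. The cardiac relatives Actn2 and Myoz2 stood at 43.8% and 13.1% in both lists, against 0% at Actn3, Myoz1 and Myoz3. The FHL genes did not all follow this contrast: Fhl2 stood at 53.9%, above Fhl3, but Fhl1 at 1.53%, below it.

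The other LIM domain genes lay closer to the background. Of 46 other LIM domain genes 28 had a shared peak (60.9%), with a median of 1 peak and 0.626% of the span covered. Crip2, a small LIM-only gene expressed in heart, stood at 70.3%, Micall1 at 16.7% and Ablim1, an actin-binding LIM gene with 59 shared peaks, at 10.7%. Crip3, Csrp1 and Fhl4 are the first by alphabet of the 18 without one. Genes of a list differ in length, and the counts were not adjusted for it.

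**Figure D4:**
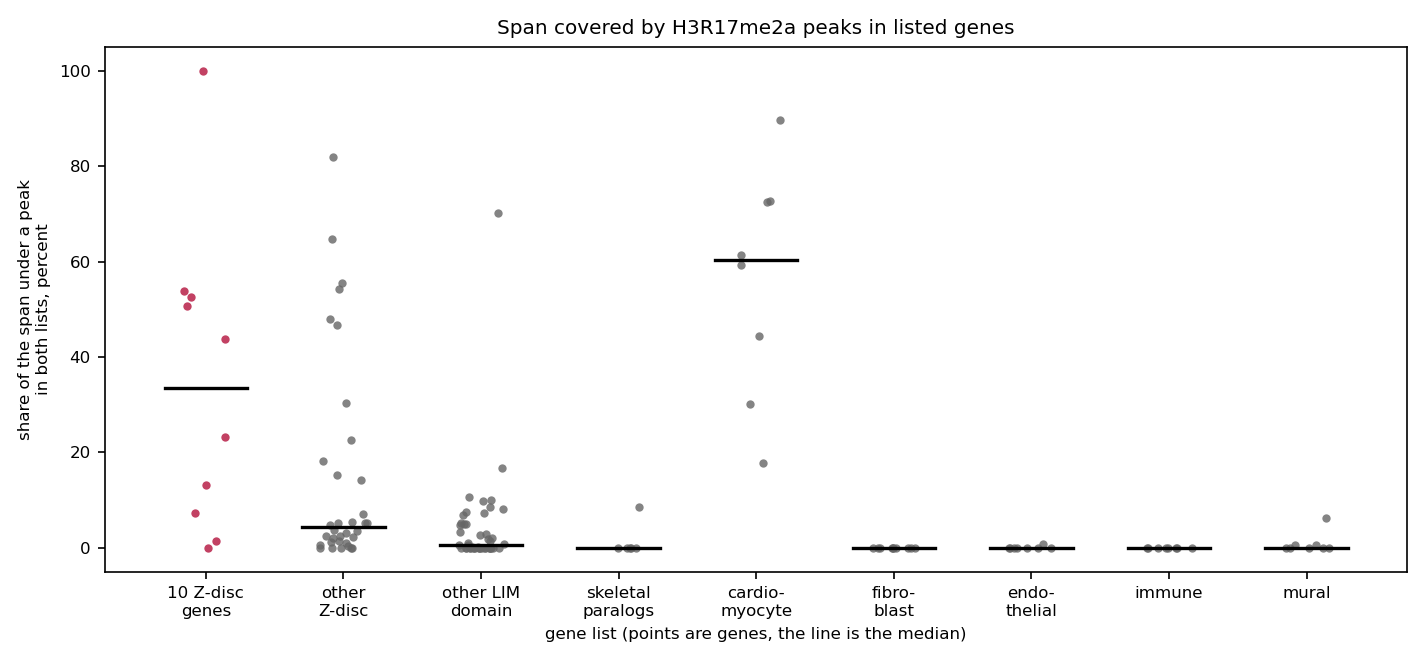
Share of the gene span under a peak in both lists (y, percent) for the 10 Z-disc genes, at the left, and for the other gene lists; points are genes and lines are medians. The medians are 33.6% for the 10 genes, 4.29% for other Z-disc genes, 0.626% for other LIM domain genes and 60.4% for cardiomyocyte markers, and 0% for skeletal paralogs and for fibroblast, endothelial, immune and mural markers.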

How the data were processed

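The peak lists are as deposited. The submitters' processing notes name Bowtie2, FastQC and mm10, without a role or an order. The peak caller, any control and any filter were not given in the sources used here. The lists have no header, and their narrow peak layout was read from the values. The authors' fold is a linear ratio, their p-values and q-values are deposited as −log10, and the score the authors deposited follows −log10 p times 10.

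Genes and promoters came from RefSeq tables for GRCm38.p6, without exons, so exon and UTR positions were not analysed. The 5′ end of 8 genes came from the promoter table's strand. Coordinates are 1-based, and overlap means at least 1 bp. Reads per summit were recovered by taking the fold as (reads + 1) / (background + 1) and p as the upper Poisson tail. This matched the deposited p within 0.001 in 99.98% of list 1 peaks. In list 2 it matched 97.81%, with ChIP reads multiplied by 0.6183, the best of a scan in which a typical factor matched 0.9% of 1000 peaks outside the 10 genes. All peaks over the 10 genes were matched. With few reads a peak, the precision is that of small counts. Overlap, coverage and read recovery were tested on simulated data. The scripts used Python 3.11.15, numpy 2.4.6, scipy 1.17.1, pandas 2.3.3 and matplotlib 3.10.9.

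The genes, lists and rules were chosen with earlier results of these data known. The 10 genes were all described, with neighbours within 1000 bp of a peak, and from each other Z-disc and LIM list the 3 most covered genes and, by alphabet, up to 3 without a shared peak. Promoters were shown for up to 5 genes by summed rank of fold. With 1 group and lists counted as 1 sample, no test was made. Alternatives were the flank, the overlap, common thresholds, the upper 50% by fold, trimming list 2, merging peaks and each list alone.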

Additional observations from a re-analysis of the deposited data

How the results depend on the processing

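The number of genes with a shared peak, reported as 9, stayed at 8 to 10 under 11 alternatives, and the median number of shared peaks, reported as 7, was 3 to 11. The number of shared peaks was reported as 137 and the median share of the span covered as 33.6%. The total came to 85 with peaks within 500 bp merged and to 60 with the upper 50% of each list by fold. The total lay between 96 and 144 with other flanks, overlaps and thresholds. At a common −log10 p of 5, Actn2 had 25 shared peaks, Fhl2 25, Ldb3 21 and Csrp3 9. With peaks within 500 bp merged they had 20, 22, 16 and 7. The median share was 28.9% at a common −log10 p of 5, 29.1% at a common −log10 q of 2, 32% with list 2 trimmed to the number of list 1 and 30.5% with a reciprocal overlap of 50%. It was 4.9% with the upper 50% by fold, where Tcap and Des had 0% of the span covered in both lists, and Actn2 22.7%, Ldb3 34.9%, Fhl2 27.9% and Csrp3 41.8%. By fold, the Tcap peak ranked 17331 in list 1 and 35884 in list 2, both below the middle. The Des start peak ranked 15634 in list 1, below the middle, and 10848 in list 2, above it. Each list alone gave 34% to 38.4%, and 141 to 151 peaks. With list 2 alone Mypn had 15.3% covered, Myoz2 25.7%, Fhl1 3.79% and Myot 2.77%. The weakest peaks rest on 10 reads in list 1 and 5 in list 2. No paired analysis was possible because both samples belong to 1 group.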
